A study of Mus musculus with 10 samples.

Results

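6 secreted proteins of the gut lining were followed: the Reg family lectins Reg1, Reg3a, Reg3b, Reg3g and Reg4, and the resistin-like protein Retnlb. They were taken as the rows whose symbol is one of these names, which gave 6 of the 19456 genes listed in at least 1 library, and all 6 were listed in all 10 libraries. The libraries were poly-A RNA sequencing of intestinal tissue from C57BL/6 mice, in a study of a gut fibrosis model made with dextran sulfate sodium (DSS), a polymer that injures the colonic epithelium. Wild-type (WT) mice without treatment gave 3 libraries, ITGB6-overexpressing transgenic (TG) mice without treatment gave 3, WT mice given DSS by mouth at 2.5% gave 2, and TG mice given the same dose gave 2. ITGB6 encodes the beta 6 subunit of the epithelial integrin that activates TGF-beta. The promoter that drives the transgene, the length of the DSS course, the age of the mice and the part of the intestine are not given in the sources used here. The labels do not say that the libraries came from separate animals, so p-values measure only the spread between these samples, which may be technical.

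Reg proteins are small secreted proteins with a C-type lectin fold. Reg3b and Reg3g are made by enterocytes and Paneth cells, bind the wall or membrane of bacteria and kill them at the epithelial surface, and their genes are known to answer to microbial signals through MyD88 and to interleukin 22 through STAT3. Reg1 and Reg3a are best known from the exocrine pancreas and from injured gut. Reg4 marks deep crypt secretory cells and some enteroendocrine cells of the colon. Retnlb, also called RELM-beta, is a cysteine-rich goblet cell product that disrupts bacterial membranes and is induced by the type 2 cytokines interleukin 4 and interleukin 13.

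Each library held 15393859 to 18284704 expected counts over 16391 to 16949 listed genes. The deposited tables carry human ITGB6 as an entry of its own, which checks the labels: it had 37587 to 65245 expected counts in the TG libraries and 2 to 21 in the WT libraries. Xist, the RNA of the inactive X chromosome, was at 0 to 0.417 CPM (counts scaled to the depth of each library) in the untreated libraries and at 307 to 739 CPM in the DSS libraries, while the Y-linked gene Kdm5d was at 26.6 to 44.2 CPM in the untreated libraries and had no counts after DSS. Sex and DSS therefore cannot be told apart in any comparison of DSS with untreated libraries. TG untreated 1 stood apart, with a summed level of 16 leukocyte markers of 108 CPM against 230 and 337 CPM in the other TG untreated libraries. The difference was not limited to leukocyte genes. Xist and the Y-linked genes, 5 in all, summed to 69.8 CPM there against 157 and 135 CPM. That library also listed the fewest genes, 16391. The cause was not tested. Colonic markers (11 genes, 6090 to 14000 CPM summed) exceeded small intestinal markers (12 genes, 157 to 502 CPM summed) in every library.

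4 members are neighbours. In the GRCm38 (mm10) annotation, Reg3b (gene ID 18489, chromosome 6, 78370885 to 78373466), Reg3a (gene ID 19694, 78380709 to 78383839), Reg1 (gene ID 19692, 78425983 to 78428668) and Reg3g (gene ID 19695, 78466269 to 78468874) lie with Reg3d and Reg2 in a stretch of 97990 bases on chromosome 6. Reg4 (gene ID 67709) is on chromosome 3, 98222138 to 98236748, and Retnlb (gene ID 57263) is on chromosome 16, 48816856 to 48818892. Reg3b and Reg3g lie at opposite ends of the chromosome 6 cluster and on opposite strands. The counts are per gene, over its transcripts. Between Reg3b and Reg3g the transcripts are 67.7% identical over their alignment, and Reg3a and Reg3b are 67.6% identical. No stretch of 50 bases of the longest RefSeq-matched transcript of any member occurred unaltered, on the same strand, in a GENCODE transcript of another gene.

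The 250 bases before the transcription start of Reg3b and Reg3g are shown because these genes had the most similar levels across libraries. Those of Reg3a are shown because it is the member nearest to Reg3b and stood at the bottom of the range. The sequences are from RefSeq on GRCm38.p6, in which 5 of the 6 members matched, written 5′ to 3′ on the strand of the gene. Capitals mark the letters TTCNNNGAA, the core of a STAT3-type site, and TATAAA, the core of a TATA box, on either strand.
Reg3b (chr6:78370635-78370884, plus strand): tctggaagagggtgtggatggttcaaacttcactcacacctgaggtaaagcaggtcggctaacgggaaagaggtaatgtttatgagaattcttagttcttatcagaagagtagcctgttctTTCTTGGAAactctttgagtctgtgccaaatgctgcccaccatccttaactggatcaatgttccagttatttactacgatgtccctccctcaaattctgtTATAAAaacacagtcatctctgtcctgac
Reg3g (chr6:78468875-78469124, minus strand): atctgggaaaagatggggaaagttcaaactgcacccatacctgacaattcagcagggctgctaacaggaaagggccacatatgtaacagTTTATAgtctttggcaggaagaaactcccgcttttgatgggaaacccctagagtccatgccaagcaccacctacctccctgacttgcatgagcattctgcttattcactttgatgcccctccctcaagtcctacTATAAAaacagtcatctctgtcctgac
Reg3a (chr6:78380459-78380708, plus strand): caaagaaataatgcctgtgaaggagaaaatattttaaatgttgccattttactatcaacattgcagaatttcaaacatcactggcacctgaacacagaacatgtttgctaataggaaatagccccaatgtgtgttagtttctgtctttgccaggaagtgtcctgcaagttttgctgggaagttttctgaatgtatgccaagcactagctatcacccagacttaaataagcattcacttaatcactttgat

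A STAT3-type match, TTCTTGGAA, lay 129 to 121 bases before the Reg3b start, and 7.02% of 32851 RefSeq promoter windows of the same length hold such a match. No match to these letters lay in the windows of Reg3g, Reg3a, Reg1 or Reg4. The relative Reg3d, which lies between Reg3b and Reg3a, held a match, TTCCCAGAA, 238 to 230 bases before its start. TATAAA lay 29 to 24 bases before the start of Reg3b, 27 to 22 before that of Reg3g and 30 to 25 before that of Reg1, and 12.4% of all windows hold it on one strand or the other. The other motifs searched were a STAT6-type site (5.85% of windows), a CDX2-type site, TTTATG (10.8%), an AP-1-type site, TGANTCA (6.75%), and a C/EBP-type site, TTNNGNAA (36.8%), all on both strands and with no overlap among the matches in the members. Reg1 held a STAT6-type and an AP-1-type match, Reg3b a CDX2-type match and Reg3a a pair of C/EBP-type matches, while Reg4 held none of the motifs. Aligned end to end with gaps counted, the windows of Reg3b and Reg3g were 68.4% identical. The other 9 pairs among the 5 matched members were 44.9 to 49.5% identical. Over paired bases alone, without gaps, Reg3a and Reg3g were 71.9% identical, Reg3b and Reg3g 70.0% and Reg3a and Reg3b 69.9%. On that measure the pairs with Reg1 or Reg4 were 60.4 to 63.4% identical, so the contrast with Reg3a depends on the gaps. A match of letters is not evidence of binding, and none was measured here.

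4 members were abundant and 2 were near the detection limit. On the FPKM scale, which corrects for gene length and so allows genes to be set side by side, the WT untreated means were 378 ± 75.9 for Reg4, 243 ± 80.0 for Retnlb, 198 ± 159 for Reg3b and 63.0 ± 44.8 for Reg3g (SD, n = 3). Reg1 (0.50 ± 0.202 FPKM) and Reg3a (0.287 ± 0.20 FPKM) were far below them, with 4 to 9 and 1 to 6 expected counts per library. Reg4 was the highest member in all 3 WT untreated libraries, and Reg3b was the highest in all 4 DSS libraries. In TG untreated libraries, Reg3b led in libraries 1 and 3 and Retnlb in library 2. Among all genes of a library ranked by FPKM, Reg3b stood at rank 221, 1965 and 418 in WT untreated libraries 1 to 3, at 9, 54 and 18 in TG untreated libraries 1 to 3, at 16 and 5 in the WT DSS libraries and at 13 and 20 in the TG DSS libraries. The 6 members together held 0.0449 to 0.0975% of a library's counts in WT untreated mice, 0.321 to 0.529% in TG untreated mice, 0.191 to 0.308% in WT mice after DSS and 0.21 to 0.292% in TG mice after DSS.

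**Figure D1:**
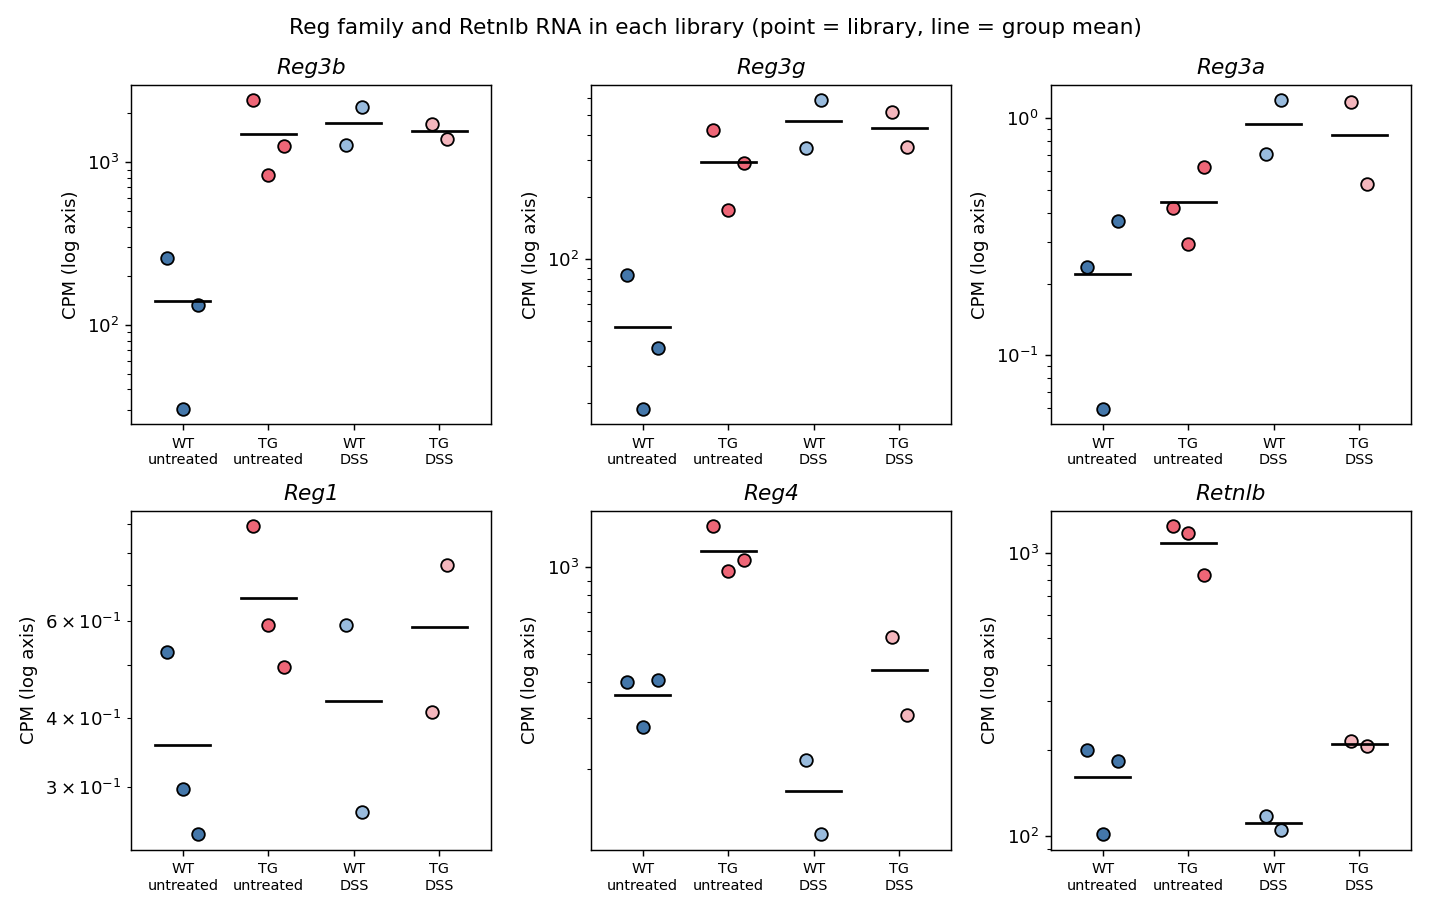
CPM of each member in each of the 10 libraries, on log axes that differ between panels; points are libraries, replicate 1 leftmost, and lines are group means. Reg3b and Reg3g are low only in WT untreated libraries, whereas Reg4 and Retnlb are highest in the 3 TG untreated libraries.

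Without DSS, the TG libraries held more RNA of Reg3b, Reg3g, Reg4 and Retnlb than the WT libraries. Reg3b, the bactericidal lectin, was at 256, 30.5 and 132 CPM in WT untreated libraries 1, 2 and 3 and at 2400, 830 and 1260 CPM in TG untreated libraries 1, 2 and 3. The groups did not overlap, although the WT libraries themselves spanned 8.39-fold. Reg3b was 10.7-fold higher in TG (log2 fold change 3.42 ± 0.66, SE; edgeR's quasi-likelihood test, p adjusted by Benjamini-Hochberg, adjusted p = 0.0239). Reg3g, its close relative that acts on Gram-positive bacteria, was at 83.5, 18.7 and 37.0 CPM in WT and 421, 173 and 291 CPM in TG, again without overlap and with library 2 lowest in both groups. Its difference was 6.35-fold (log2 2.67 ± 0.51, edgeR adjusted p = 0.0228).

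Reg4 and Retnlb, products of secretory cells, varied less within groups. Reg4 was at 400, 279 and 408 CPM in WT untreated libraries and 1390, 973 and 1060 CPM in TG untreated libraries, a 3.15-fold difference (log2 1.65 ± 0.29, edgeR adjusted p = 0.0169). Retnlb was at 201, 101 and 183 CPM in WT and 1240, 1170 and 835 CPM in TG, a 6.70-fold difference (log2 2.74 ± 0.25, edgeR adjusted p = 0.000956). In both genes, as in Reg3b and Reg3g, all TG values lay above all WT values, which was so in 16.7% of tested genes. Reg1 and Reg3a did not pass: the log2 differences were 0.87 ± 0.48 (95% interval −0.20 to 1.94) and 0.99 ± 0.63 (−0.42 to 2.39), with overlapping groups. Thus 4 of the 6 members were called higher, where 2.26% of the 14072 genes tested were, and none was called lower, where 1.44% were. In bulk tissue, more RNA per cell and more cells of a type cannot be told apart.

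The call of Retnlb held in 10 of 10 fits that each left out a library, with log2 values of 2.48 to 2.91. The others depended on single libraries. Reg3b did not pass without WT untreated 3 (adjusted p = 0.114), TG untreated 2 (0.0503) or TG untreated 3 (0.0519), nor in a fit of these 2 groups alone (0.0548). Reg3g did not pass without WT untreated 2 (0.0798), WT untreated 3 (0.114) or TG untreated 3 (0.0557), and Reg4 did not pass without WT untreated 1 (0.0626), 2 (0.0861) or 3 (0.0695). Without WT untreated 1, the Reg3b and Reg3g differences were larger, at 4.18 and 3.38 on the log2 scale. Without TG untreated 1, the library that stood apart, all 4 passed, at log2 values of 2.91 for Reg3b, 2.32 for Reg3g, 1.49 for Reg4 and 2.64 for Retnlb.

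In WT mice, the DSS libraries held more Reg3b, Reg3g and Reg3a and less Reg4 than the untreated libraries. Reg3b was at 1280 and 2180 CPM after DSS, 12.4-fold above the untreated WT level given above (log2 3.63 ± 0.70, edgeR adjusted p = 0.00733). Reg3g was at 343 and 587 CPM, 10-fold higher (log2 3.32 ± 0.55, edgeR adjusted p = 0.0038). For both lectins, DSS library 2 was the higher and neither overlapped the untreated range (all DSS values lay above all untreated ones in 28.4% of tested genes), and both passed in 10 of 10 fits without a library, at up to 4.40 and 4.05 on the log2 scale, both without WT untreated 1. Reg3a, a lectin of the same subfamily, had 12 and 22 expected counts after DSS against 4, 1 and 6 without (log2 2.08 ± 0.61, edgeR adjusted p = 0.0396).

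Reg4 went the other way in WT mice: 216 and 119 CPM after DSS lay below all 3 untreated libraries, as in 29.1% of tested genes, and the level fell by 1.11 ± 0.32 on the log2 scale (edgeR adjusted p = 0.0371). Retnlb, at 117 and 105 CPM after DSS, lay within the untreated range of 101 to 201 CPM, with a log2 difference of −0.54 ± 0.27 (95% interval −1.13 to 0.05, edgeR adjusted p = 0.184), which passed only without WT untreated 2 (−0.80, 0.0285). Reg1 did not pass (log2 0.24, 95% interval −1.01 to 1.5). In all, 3 of 6 members were called higher, where 10.2% of tested genes were, and 1 was called lower, where 9.62% were. The Reg4 call was lost without WT untreated 1 (adjusted p = 0.0945), WT untreated 3 (0.0965), TG untreated 3 (0.0525) or WT DSS 2 (0.274), and with limma on log2(FPKM + 1) without a filter (0.053). The Reg3a call, which rests on a few counts, was lost without WT untreated 1 (0.101), 2 (0.116) or 3 (0.0505) or WT DSS 2 (0.271), and with limma on log2(FPKM + 0.1) (0.0519) or log2(FPKM + 1) without a filter (0.0578); on the log2(FPKM + 1) scale, which understates low genes, its difference was 0.75.

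In TG mice, the DSS libraries held less Retnlb and Reg4, and no member passed in the upward direction. Retnlb was at 215 and 208 CPM after DSS, below all 3 TG untreated libraries, as in 16.0% of tested genes, and fell by 2.36 ± 0.29 on the log2 scale, 5.12-fold (edgeR adjusted p = 0.00138), a call that held in 10 of 10 fits without a library. Reg4 was at 575 and 308 CPM and fell by 1.37 ± 0.33 (edgeR adjusted p = 0.0378). The antibacterial lectins overlapped between the groups: Reg3b was at 1720 and 1380 CPM after DSS (log2 difference 0.05 ± 0.67, 95% interval −1.45 to 1.55), and Reg3g at 515 and 348 CPM (0.55 ± 0.53, −0.62 to 1.73). Reg3a (0.93 ± 0.57) and Reg1 (−0.17 ± 0.50) also did not pass. The count was 0 of 6 higher, where 3.33% of tested genes were, and 2 of 6 lower, where 2.15% were.

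The Reg4 call in TG mice was lost without WT untreated 1 (adjusted p = 0.0645), WT untreated 3 (0.0617), TG untreated 2 (0.0601), TG untreated 3 (0.0817), TG DSS 1 (0.0502) or TG DSS 2 (0.312). It was also lost in a fit of the compared groups alone (0.0607) and with limma on log2(FPKM + 1) without a filter (0.0581). Without TG untreated 1 it passed (0.0387).

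After DSS, no member separated TG from WT at the threshold, where 0.185% of tested genes passed in either direction. Reg4 and Retnlb were higher in both TG DSS libraries than in both WT DSS libraries, with log2 differences of 1.40 ± 0.35 (95% interval 0.62 to 2.17, edgeR adjusted p = 0.184) and 0.93 ± 0.29 (0.29 to 1.57, edgeR adjusted p = 0.258). All TG values lay above all WT values in 22.0% of tested genes in this comparison of 2 against 2 libraries. By DESeq2, Reg4 passed (adjusted p = 0.00579), 1 member of 6, where 1.83% of genes did, and at an unadjusted p under 0.05 edgeR had these 2 genes, where 11.2% of tested genes were. Reg3b and Reg3g differed by −0.16 ± 0.74 (95% interval −1.80 to 1.48) and −0.11 ± 0.58 (−1.41 to 1.19). These intervals do not contain the untreated differences of 3.42 and 2.67, but whether the difference changed is the question of the interaction.

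The interaction compares the TG-to-WT difference after DSS with that before it. No member passed with edgeR, where 0.846% of tested genes did, and 3 of 6 were under an unadjusted p of 0.05, where 12.1% of tested genes were. Retnlb came closest, at −1.82 ± 0.37 on the log2 scale (95% interval −2.64 to −0.99, edgeR adjusted p = 0.062). Reg3b stood at −3.58 ± 0.99 (−5.78 to −1.39, edgeR adjusted p = 0.153) and Reg3g at −2.77 ± 0.77 (−4.49 to −1.05, edgeR adjusted p = 0.158). Reg4 stood at −0.26 (−1.24 to 0.72), Reg1 at −0.42 and Reg3a at −1.15. Retnlb passed without WT untreated 2 (adjusted p = 0.0473), without TG untreated 1 (0.0408), without the low-count filter (0.0335) and by DESeq2 (0.000187), which also called Reg3b (0.0338) and called 3.06% of all genes. For Retnlb, the adjusted p ranged from 0.0408 to 0.263 over the fits without a library.

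**Figure D2:**
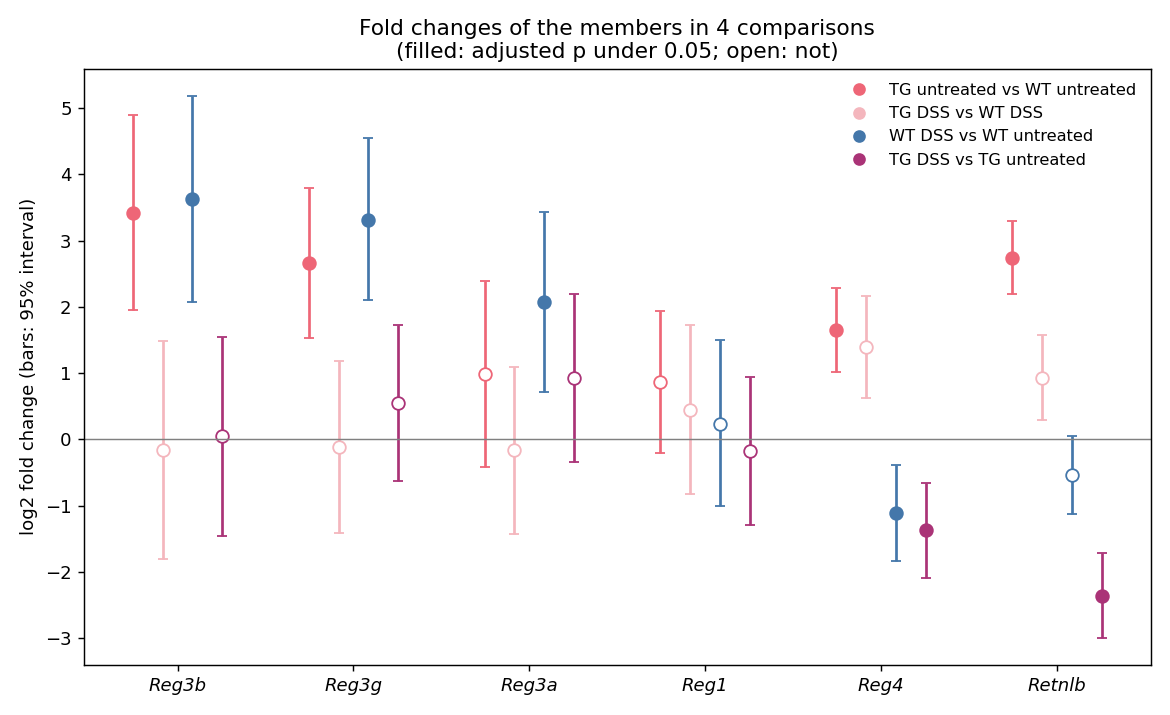
Log2 fold change of each member in 4 comparisons, with 95% intervals; filled points passed at an adjusted p under 0.05 and open points did not. For Reg3b and Reg3g the difference between genotypes without DSS and the DSS difference in WT share the same 3 WT untreated libraries.

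Set in order by group mean, Reg3b read 1730 ± 630 CPM in WT DSS, 1550 ± 240 in TG DSS (SD, n = 2 each), 1500 ± 813 in TG untreated and 140 ± 113 CPM in WT untreated (SD, n = 3 each), and the first 3 groups overlapped. Reg3g had the same order, at 465 ± 173, 432 ± 118, 295 ± 124 and 46.4 ± 33.4 CPM. Reg4 read 1140 ± 220 CPM in TG untreated, 441 ± 188 in TG DSS, 362 ± 72.2 in WT untreated and 168 ± 68.1 in WT DSS, and TG DSS overlapped WT untreated. Retnlb read 1080 ± 217 CPM in TG untreated, 211 ± 4.71 in TG DSS, 162 ± 53.4 in WT untreated and 111 ± 8.52 in WT DSS. For Retnlb the lowest TG DSS library, at 208 CPM, was next to the highest WT untreated library, at 201 CPM, and these 2 groups were not compared by a test. The order of groups was thus one and the same for Reg3b and Reg3g, and another one shared by Reg4 and Retnlb.

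The members also changed relative to each other within libraries. The ratio of Reg3b to Retnlb FPKM was 1.2, 0.285 and 0.681 in WT untreated libraries, 1.83, 0.668 and 1.43 in TG untreated libraries, 10.4 and 19.6 in WT DSS libraries and 7.57 and 6.27 in TG DSS libraries. Every DSS library thus lay above every untreated library of either genotype, and the untreated genotypes overlapped. The ratio of Reg3b to Reg3g FPKM was 3.20, 1.70 and 3.72 in WT untreated libraries, 5.96, 5.01 and 4.53 in TG untreated libraries, 3.91 and 3.86 in WT DSS libraries and 3.49 and 4.14 in TG DSS libraries. The 3 TG untreated libraries were the highest of the 10, and the lowest, WT untreated 2, also had the lowest level of both genes. These ratios need no scaling between libraries and were not tested. They restate the levels given above, and the share of all gene pairs that separate groups in this way was not computed. Sex is tied to DSS in the separation of DSS from untreated libraries.

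**Figure D3:**
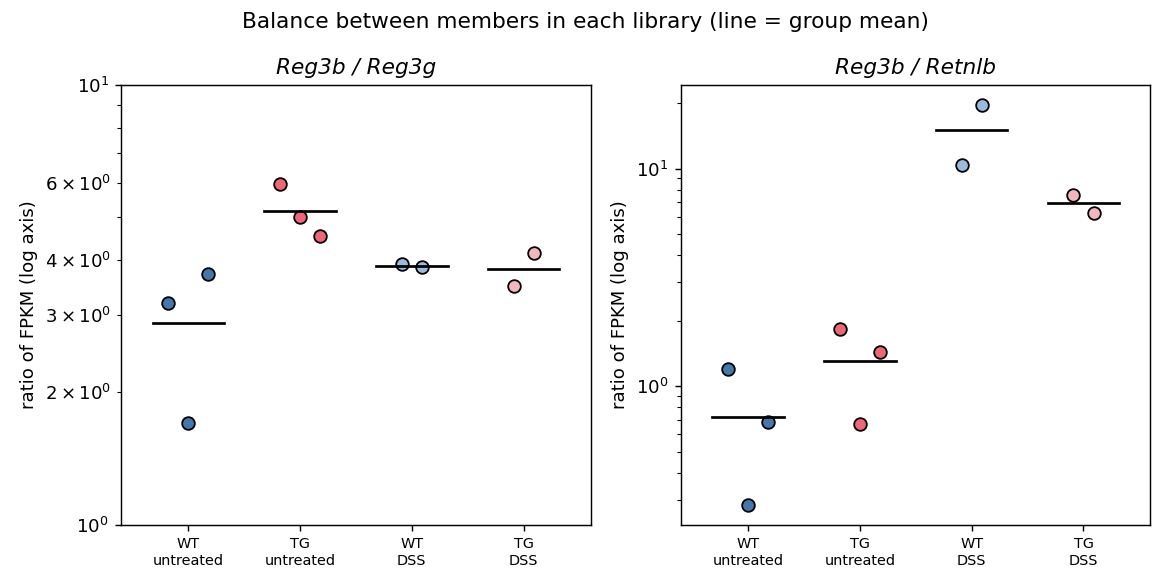
Ratio of FPKM between members in each library, on log axes; points are libraries, replicate 1 leftmost, and lines are group means. The Reg3b to Retnlb ratio is 6.27 to 19.6 in DSS libraries and 0.285 to 1.83 in untreated ones, and the Reg3b to Reg3g ratio is highest in the 3 TG untreated libraries.

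The low members and the relatives stayed near the limit of these libraries. Reg1, a lectin abundant in pancreatic juice, had 9, 5 and 4 expected counts in WT untreated libraries, 15, 10 and 8 in TG untreated libraries, 10 and 5 in WT DSS libraries and 7 and 13 in TG DSS libraries. The highest, 15, was in TG untreated 1, the one library in which all 16 listed markers of pancreatic acinar cells had counts. There the amylase gene Amy2a5 had 9.99 expected counts against 0 in every other library, and the protease genes Prss2, Cpa1, Cpb1 and Ctrb1 had 1 to 3. The part of such cells in the Reg1 value was not tested. Reg3a had 7, 5 and 10 expected counts in TG untreated libraries and 20 and 9 in TG DSS libraries, beside the WT counts given above. Reg2 had at most 4 counts, Reg3d at most 5 and Retn, which encodes resistin, 1 count in 1 library.

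Among the resistin-like genes next to Retnlb on chromosome 16, Retnla had 4, 9 and 20 expected counts in TG untreated libraries and 0 to 3 in all others, below the filter for testing. Retnlg, a neutrophil product, had 24 and 20 counts in WT DSS libraries, 16 and 7 in TG DSS libraries and 0 to 2 in untreated libraries. It was the 1 relative of 5 that could be tested and was higher after DSS in both genotypes (edgeR adjusted p = 0.00652 in WT and 0.0397 in TG). In TG mice that call held in 3 of 10 fits without a library (highest adjusted p = 0.269). The summed level of 9 listed neutrophil markers, Retnlg among them, was 29.6 to 79.0 CPM without DSS and 145 to 264 CPM with it. Most of each sum was the single marker Ly6g, at 393.92 to 1211.06 expected counts without DSS and 1744.14 to 4012.35 with it. Of the 7 markers that could be tested, 7 were higher after DSS in WT and 6 in TG. Extl3, which encodes a receptor reported for Reg proteins, was at 41.0 to 59.1 CPM in all libraries and passed in none of the comparisons.

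Of the pathway upstream of Reg3b and Reg3g, the RNAs of interleukins 22, 6 and 17A were scarce. Il22 had 7 expected counts in TG untreated 3, 7 in WT DSS 2, 8 and 3 in the TG DSS libraries and 0 in the other 6. Il6 had 0 to 2 and Il17a 0 to 12. In the list of 25 interleukin 22 and gp130 cytokines, receptors and STAT3 pathway genes, 19 could be tested, and 0 passed between untreated TG and WT with edgeR, DESeq2 or limma (median log2 difference 0.03, against −0.02 over all tested genes), while 1 was under an unadjusted p of 0.05 with edgeR.

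After DSS in WT mice, 5 of these 19 genes were higher and 1 lower (median −0.01, against 0 over all tested genes). Socs3, the feedback inhibitor of STAT3 signalling, rose by 2.81 on the log2 scale (edgeR adjusted p = 0.000704), and Lif, a gp130 cytokine, by 1.29 (edgeR adjusted p = 0.00478). Osmr, the oncostatin M receptor, had 6, 3 and 0 expected counts in WT untreated libraries and 112 and 134 after DSS, and Osm, its ligand, 1, 5 and 2 against 37 and 28. The higher count stayed at 4 or 5 in every fit without a library, and it was 3 with a filter of 1 CPM in 5 libraries. The lower gene was Il6ra, the interleukin 6 receptor (log2 −0.86, edgeR adjusted p = 0.0397), which did not pass without any 1 of the WT untreated or TG DSS libraries or WT DSS 2, and passed in 7 of 11 fits with another tool or setting, the replicate block not among them. The lower count was 2 without TG untreated 1 or WT DSS 1. In TG mice, 4 were higher and none lower (median −0.03, against 0.01), which became 2 without TG untreated 3 or TG DSS 1 and 0 without TG DSS 2. In that comparison Socs3 rose by 1.97 (edgeR adjusted p = 0.00834).

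A list of 25 epithelial genes reported to respond to interleukin 22 or STAT3, other than the members, was tested in full. Socs3 is in this list and in the one above, so its calls after DSS count in both. Between untreated TG and WT, 4 were higher and none lower (median 0.45). They included Duoxa2, which matures an epithelial oxidase (log2 1.65, edgeR adjusted p = 0.00585), and Duox2, that oxidase (0.82, 0.0114). The others were Fut2, which fucosylates the epithelial surface (0.96, 0.0124), and Tifa, an adaptor in the response to bacterial sugars (0.83, 0.031). That count became 2 without WT untreated 1 and 1 without WT untreated 2 or 3, and Duoxa2 passed in 10 of 10 such fits. After DSS in WT, 19 were higher and none lower (median 1.55), with 15 to 21 in the fits without a library. Of the 19, 2 are also neutrophil markers, S100a8 and S100a9, at 0 to 1 expected counts in WT untreated and 77 to 204 in WT DSS libraries, and 7 of 7 tested neutrophil markers were higher there. In that comparison, Duox2 rose by 2.43 (edgeR adjusted p = 1.56e-05), Duoxa2 by 3.53 (3.67e-05) and Saa2, an acute-phase protein, by 2.57 (9.01e-05). After DSS in TG, 13 were higher and none lower (median 0.85), with 11 to 13 in the fits without a library. The neutrophil markers S100a8 and S100a9 were among these 13 too. TG and WT after DSS differed in none of the 25 (median −0.24).

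For the interaction, 3 genes of that list were lower (Duox2, Duoxa2 and Tifa) and 1 higher (Saa1), with a median of −0.65 against 0 over all tested genes. Each call was lost without several libraries: the lower count was 0 to 4 over the fits without a library, and 0 without any WT untreated library, TG untreated 3 or TG DSS 1 and 1 without TG untreated 2, WT DSS 2 or TG DSS 2. The Saa1 call was lost without any of 8 libraries. It held without TG untreated 1 and without WT DSS 2.

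The list of type 2 cytokine and STAT6 genes, upstream of Retnlb, had 18 genes, of which 10 could be tested. Il13 had 2 expected counts in 1 library, Il4 at most 2, and Il5 and Il9 were listed in no library. Between untreated TG and WT, 1 of 10 was higher and none lower (median 0.13): Arg1, an enzyme induced by type 2 cytokines, had 20, 23 and 14 counts in TG and 3, 5 and 4 in WT (log2 2.22, edgeR adjusted p = 0.0143), lost without any WT untreated library or TG untreated 2 (highest adjusted p = 0.0695). Clca1, a goblet cell protein and common type 2 target, was at 1930 to 6430 CPM in WT and 12000 to 13300 CPM in TG. It did not pass (edgeR adjusted p = 0.0634), although its groups did not overlap. All TG values lay above all WT values in 16.7% of tested genes. After DSS in WT mice, 4 of 10 were higher and 1 lower (median 0.44). Arg1 was among the higher ones (log2 2.3, edgeR adjusted p = 0.0041), at 18 and 25 counts in WT DSS libraries. In TG DSS libraries it had 27 and 23 counts, where Retnlb was lower than in TG untreated libraries. Il4ra, a receptor subunit, rose by 1.06 (edgeR adjusted p = 0.0048) and passed in all 10 fits without a library, and Pou2f3, the tuft cell regulator, fell by 1.33 (0.0217). The higher count was 2 without WT untreated 1 or 3, and the Pou2f3 call was lost without WT untreated 1 or 2 or either WT DSS library.

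In TG mice after DSS, none of the type 2 genes was higher and 1 lower, again Pou2f3 (log2 −1.38, edgeR adjusted p = 0.0325), lost without any WT untreated library, TG untreated 2 or either TG DSS library. Genes of the Toll-like receptor and MyD88 axis, through which microbes are known to induce Reg3g, numbered 23 tested. Only 1 was higher between untreated TG and WT, Nfkbia, the inhibitor of NF-kappa B (log2 0.60, edgeR adjusted p = 0.0366). That call was lost without library 1 or 3 of WT untreated, library 2 or 3 of TG untreated or either TG DSS library, and leaving out TG untreated 1 gave 2 genes. After DSS in WT, 4 were higher and 1 lower (median 0.30), and the higher ones included Cd14, a co-receptor for bacterial lipopolysaccharide (1.79, 0.000126), and Nfkbia (1.12, 0.001), which both passed in 10 of 10 fits without a library. The higher count there was 2 without any WT untreated library or WT DSS 1 and 9 without TG untreated 1, and the call of the lower gene, Irak2, an interleukin 1 receptor-associated kinase (log2 −0.56, edgeR adjusted p = 0.0167), was lost without WT untreated 3 or WT DSS 2.

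Some markers of the cells that make Reg4 and Retnlb were higher, like these genes, in untreated TG, while few were called lower with them after DSS. The 14 listed goblet cell markers summed to 25900, 10800 and 14600 CPM in WT untreated libraries, 41000, 30100 and 36700 CPM in TG untreated libraries, 23100 and 14300 CPM in WT DSS libraries and 35100 and 28200 CPM in TG DSS libraries. None of them was at 0 in any library. Every TG library was above every WT library, with or without DSS, so the marker sum and Retnlb parted in TG mice after DSS. The sum pools abundant genes that moved in opposite directions in TG mice. Clca1 had 192773 to 223604 expected counts in TG untreated libraries and only 74662 and 33167 in TG DSS libraries. Muc2 had 59486 to 161426 in TG untreated libraries and 223913 and 215504 in TG DSS libraries, and Zg16 had 9861 to 20617 and then 61685 and 48811. Between untreated TG and WT, 5 of 14 were higher and none lower (median 0.54): Spink4, a secreted protease inhibitor (1.66, edgeR adjusted p = 0.00322), Spdef, the goblet cell regulator (1.34, 0.0139), Agr2, a mucin-folding enzyme (1.34, 0.0205), Atoh1, the secretory lineage factor (0.56, 0.0245), and Galnt12. Muc2, the gel-forming mucin, was at 3330 to 7000 CPM in WT and 3510 to 9620 CPM in TG and did not pass. The count of 5 became 1 when library 2 or 3 of WT untreated was left out and 2 when library 2 of TG untreated was, and Spink4 passed in 10 of 10 such fits. After DSS in TG, where Retnlb fell, 2 goblet markers were higher, Tff3, the trefoil peptide (1.96, edgeR adjusted p = 0.00539), and Zg16, a lectin of the mucus (1.98, 0.0116), and none was lower, with 0 higher without TG DSS 1 and 1 without TG DSS 2 or TG untreated 3 and up to 2 lower over the fits without a library. After DSS in WT, 1 was higher and 2 were lower. Between TG and WT after DSS, 1 of 14 was higher and none lower (median 0.79). That 1 was Atoh1 (log2 0.93, edgeR adjusted p = 0.0374), a call lost without any WT untreated library or TG untreated 2. In that comparison 8 of the 14 were under an unadjusted p of 0.05 with edgeR, where 11.2% of tested genes were.

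The 8 markers of deep crypt secretory cells, 3 of which are also goblet markers, summed to 874 to 1230 CPM in WT untreated, 2100 to 3280 in TG untreated, 1140 to 1510 in WT DSS and 1870 to 1950 CPM in TG DSS libraries. Those 3, Spink4, Agr2 and Spdef, were the ones higher in untreated TG, a count that became 1 without WT untreated 2 or 3. Kit, which defines these cells in the colon, was not among them (55.3 to 70.6 CPM in WT and 70.4 to 77.6 CPM in TG), but fell after DSS by 0.82 in WT (edgeR adjusted p = 0.00459) and by 0.68 in TG (0.0212). After DSS, 2 of the 8 were lower in WT (Kit and Egf), 1 in TG (Kit) and none was higher in either; Agr2 was at a mean of 462 CPM in WT untreated and 812 CPM in WT DSS libraries (log2 0.81, edgeR adjusted p = 0.0569). The WT count of 2 became 1 in 7 of the 10 fits without a library, all but those lacking TG untreated 1 or 2 or WT DSS 1. The Kit call in TG was lost without TG untreated 2 or either TG DSS library. Enteroendocrine markers, of another cell type that holds Reg4, were called only in the direction opposite to Reg4 after DSS: 5 of 12 were higher in WT and 6 in TG, none lower, with Tac1, a tachykinin precursor, at 3.68 in WT (edgeR adjusted p = 4.34e-05). Those counts became 3 without WT DSS 1, where 1 was lower, and 2 without TG DSS 1. Their sum was 271 to 365 CPM in WT untreated, 282 to 362 in TG untreated, 394 to 534 in WT DSS and 642 to 718 CPM in TG DSS libraries. The part of cell numbers in the levels of Reg4 and Retnlb was not tested.

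Some markers of each gut region were lower in untreated TG. Of 10 tested small intestinal markers, 1 was lower and none higher (median −0.59): Rbp2, a retinol-binding protein (log2 −0.90, edgeR adjusted p = 0.0324), a call that held in 5 of 10 fits without a library and was lost without any 1 of the WT untreated libraries or TG untreated 2 or 3. Of 11 colonic markers, 4 were lower in untreated TG than WT and none higher (median −0.48): Hoxd13, a homeobox gene of the distal gut, was at 39.2 to 42.6 CPM in WT and 15 to 21.1 CPM in TG (log2 −1.25, edgeR adjusted p = 0.0071) and passed in all 10 fits without a library, as did Slc37a2 and Atp12a, while Prdx6 was lost without WT untreated 2 or 3 or TG untreated 3. The colonic sum was 11200 to 14000 CPM in WT untreated, 7530 to 10600 in TG untreated, 6090 to 8730 in WT DSS and 11400 to 13300 CPM in TG DSS libraries. Of the Paneth cell list, 6 of 11 genes could be tested, and 3 were higher and none lower in untreated TG (median 1.62), a count that became 1 without WT untreated 3. Ang4, an antimicrobial ribonuclease, was at 117 to 367 CPM in WT and 1160 to 1250 CPM in TG (2.38, edgeR adjusted p = 0.0143), and Itln1, a lectin, at 6.13 to 16.7 and 38.4 to 46.6 CPM (1.95, 0.0143). Both calls were lost without WT untreated 3, and that of Ang4 also without TG untreated 2. Pnliprp2, a pancreatic lipase-related gene, was the third (3.22, edgeR adjusted p = 0.00328) and passed in all 10. The defensins Defa17, Defa22 and Defa24, which define Paneth cells, were at 0 counts in most libraries, with their highest expected counts, 14.52, 8.05 and 20.53, in WT untreated 1, and Lyz1 had 13.6 to 52.91. The part of Paneth cells in the results was not tested. After DSS, 1 of the 6 was higher and 3 were lower in each genotype. Pla2g2a, a secreted phospholipase that kills bacteria, rose from a mean of 2.27 to 26.8 CPM in WT (log2 3.56, edgeR adjusted p = 0.000624) and from 5.55 to 31.7 CPM in TG (2.51, 0.0054), while Ang4, Itln1 and Pnliprp2 fell. After DSS, Ang4 was at 11.1 to 37.7 CPM and Itln1 at 0.702 to 1.60 CPM over both genotypes. Where along the gut each sample was taken is not given in the sources used here, and the part of position in the results was not tested.

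**Figure D4:**
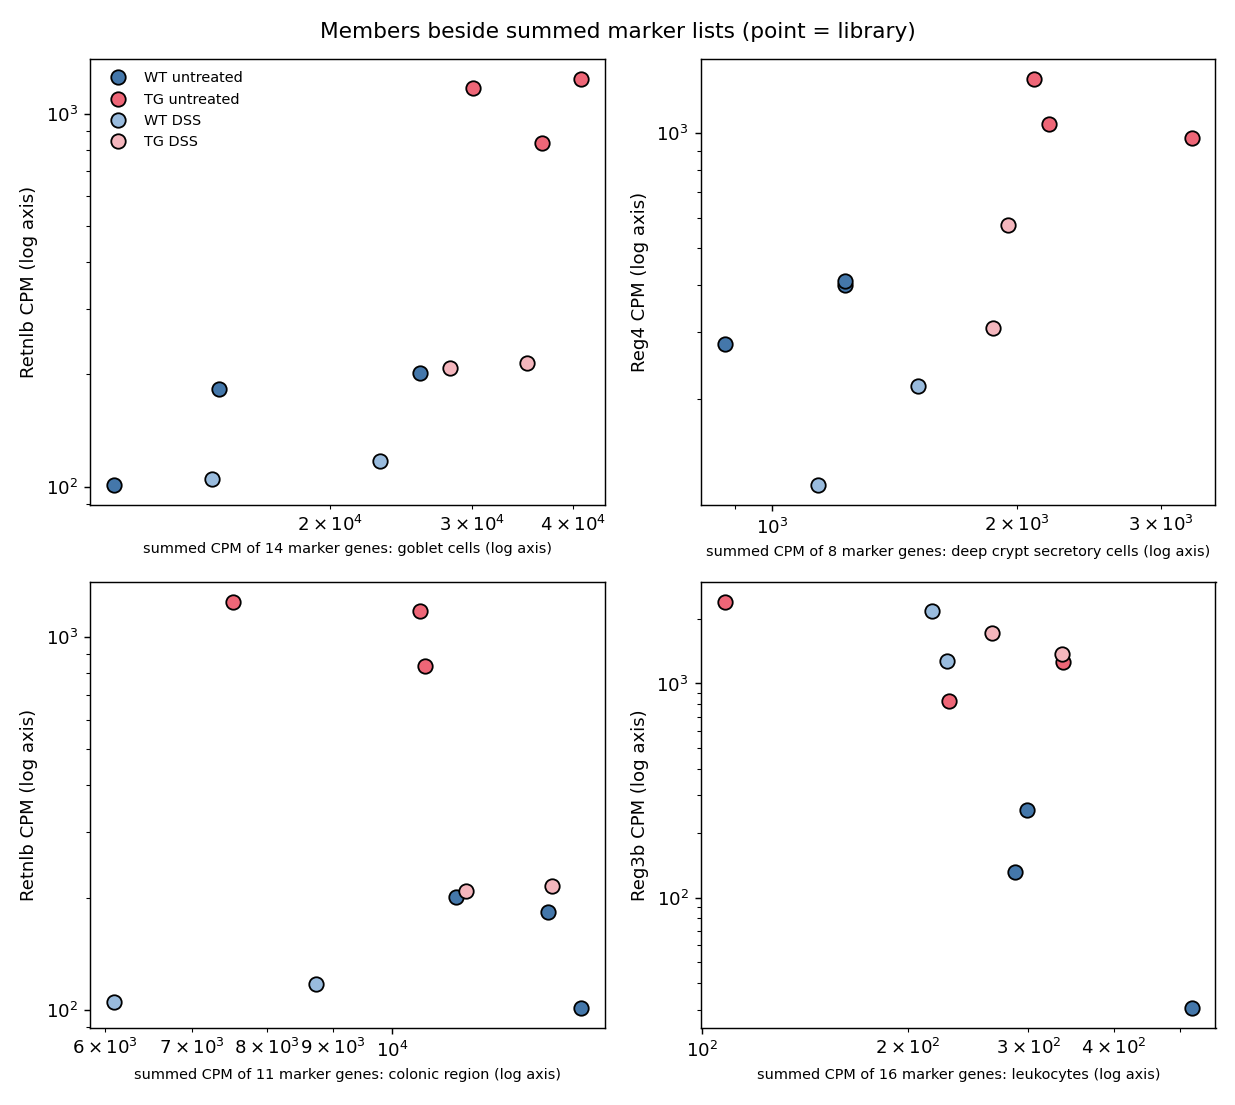
Members plotted against the summed CPM of a marker list in each library, on log axes. Retnlb in the 3 TG untreated libraries stands at 835 to 1240 CPM at a goblet marker sum of 30100 to 41000 CPM, whereas the TG DSS libraries, at 28200 and 35100 CPM, have 208 and 215 CPM of Retnlb; Reg3b is lowest in WT untreated 2, the library with the highest leukocyte sum.

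Leukocyte markers (16 genes) summed to 287 to 520 CPM in WT untreated, 108 to 337 in TG untreated, 217 to 228 in WT DSS and 265 to 336 CPM in TG DSS libraries. The sum hides opposite changes after DSS. Of the 16, 4 were higher and 4 lower in WT (median −1.1), and 4 were higher and 0 lower in TG (median −0.76). Ly6g had 393.92 to 1211.06 expected counts without DSS and 1744.14 to 4012.35 with it, whereas Coro1a had 362 to 1682 and then 309 to 357. WT untreated 2, with the lowest Reg3b, Reg3g, Reg4 and Retnlb of its group, had the highest leukocyte sum (520 CPM) and the lowest goblet sum. In the untreated WT libraries Reg3b, Reg3g, Retnlb and the goblet sum had the same order, library 1 above 3 above 2. Epithelial markers (9 genes) summed to 16900 to 18400 CPM in WT untreated, 18400 to 21300 in TG untreated, 15500 to 19200 in WT DSS and 17900 to 20800 CPM in TG DSS libraries. Of these, 1 was higher in untreated TG, Krt18, a keratin (log2 0.54, edgeR adjusted p = 0.0205), a call lost without any 1 of the WT untreated libraries or TG untreated 2. Of 12 tested fibroblast and smooth muscle markers, 3 were higher in untreated TG and none lower: Col1a1 (1.79, edgeR adjusted p = 0.0289), Col1a2 (2.07, 0.0207) and Col3a1 (1.98, 0.031), the fibrillar collagens. That count was 0 without WT untreated 1 or 2 or TG untreated 2 or 3, 1 without WT untreated 3 and 5 without TG untreated 1. Their part in the member differences was not tested.

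The genes whose log2 CPM followed each member most closely were sought among 10592 genes over the 10 libraries, which share groups, so that Pearson's r is a description only. Reg3b and Reg3g were each other's closest gene (r = 0.986). Next came Rassf4 (0.971) and Stt3a (0.947), a catalytic subunit of the complex that N-glycosylates secreted proteins, for Reg3b, and Tmem51 (0.964) and Stt3b (0.962), the other catalytic subunit of that complex, for Reg3g. For Reg4 they were Pnliprp2 (0.959), a lipase, Trib1 (0.955) and Nrbf2 (0.954). For Retnlb they were the amino acid transporter Slc1a4 (0.963), Gga2 (0.962) and the sugar transporter Slc2a10 (0.961), and for Reg1 and Reg3a, at a few counts each, St6galnac6 (0.953) and Spry4 (0.906). Pnliprp2 was at a mean of 5.93 CPM in WT untreated, 55.4 in TG untreated, 1.18 in WT DSS and 5.01 CPM in TG DSS libraries, the same order of groups as Reg4 but for the middle pair.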

How the data were processed

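Poly-A RNA of mouse intestinal tissue was sequenced on the BGISEQ-500, per the labels' protocols. HISAT2 2.0.4, Bowtie2 2.2.5, RSEM 1.2.12 and mm10 are named in the submitters' processing notes, without role or order. The authors deposited 1 table per library of expected counts, FPKM values and gene length (other values, in bases, per the file headers); a gene is listed where its deposited FPKM is at least 0.01, and a missing gene was set to 0.

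Expected counts were rounded and tested with edgeR 4.0.16 (R 4.3.3), which used TMM scaling, filterByExpr (minimum count 10, total 15, leaving 14072 genes), 1 mean per group over all 10 libraries (6 degrees of freedom remaining; biological coefficient of variation 0.171), 5 contrasts and a Benjamini-Hochberg threshold of 0.05. The standard error is the log2 fold change over the root of F, and 95% intervals use it. CPM values are TMM-scaled. All 6 members passed the filter. Total expected counts of 15393859 to 18284704 per library leave Reg1 and Reg3a imprecise. Groups came from the labels. No pair of same-group libraries was a duplicate (chi-square per gene 9.98 to 65.1 over 8 pairs). The test was also run on counts simulated from its own fitted spread. Such counts hold no outlying library, so that run cannot check the effect of one.

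Alternatives were DESeq2 1.42.0, other scalings and filters, limma 3.58.1 on log2(FPKM + 1) or log2(FPKM + 0.1), fits of the compared groups, a replicate block and fits without each library; applying them to gene lists was chosen after seeing the data. The members, lists and motifs were chosen with earlier results of these data known. An item of the interleukin 22 list is not reported here. Named from each list are up to 4 genes with the smallest adjusted p among those passing, plus genes chosen after their values were seen (such as Il22, Clca1, Muc2, Kit and Pou2f3); the closest genes are the 3 of highest Pearson r on log2 CPM (prior count 2) among genes of mean 5 CPM or more. Identities are from global alignments (Biopython 1.88).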

Additional observations from a re-analysis of the deposited data

How the results depend on the processing

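The count of members called was unchanged by other scalings (DESeq2 size factors, upper quartile, total count), and no scaling moved the median of all genes by more than 0.08 on the log2 scale. DESeq2 called 2 members in the interaction and 1 between TG and WT after DSS, against 0 each, and the interaction had 1 without the low-count filter. With limma on log2(FPKM + 1) without a filter, 1 member passed between TG DSS and TG untreated instead of 2, and 2 between WT DSS and WT untreated instead of 4; a fit of the compared groups alone gave 1 for TG DSS against TG untreated. Over the fits without a library, the count was 1 to 4 for untreated TG against WT, 2 to 4 for WT DSS against WT untreated, 1 to 2 for TG DSS against TG untreated, 0 to 1 for the interaction and 0 in every fit for TG against WT after DSS. The cause of these changes was not tested.

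Directions turned only where the difference had not passed, and only in fits without a library, in which log2 values ranged as follows. In the interaction, Reg1 ranged from −0.93 to 0.22 (turned without WT DSS 1) and Reg4 from −0.78 to 0.23 (without WT DSS 1, or TG DSS 2, 0.12). In TG DSS against TG untreated, Reg1 ranged from −0.68 to 0.20 (without TG DSS 1, or TG untreated 1, 0.10) and Reg3b from −0.23 to 0.57 (without TG untreated 2, TG untreated 3, −0.06, or TG DSS 1, −0.12). In TG against WT after DSS, Reg1 ranged from −0.06 to 1.10 (without TG DSS 2, or WT DSS 2, −0.01), Reg3a from −0.84 to 0.30 (without TG DSS 2, or WT DSS 2, 0.26), Reg3b from −0.49 to 0.28 (without WT DSS 2) and Reg3g from −0.44 to 0.33 (without WT DSS 2, or TG DSS 2, 0.15). In WT DSS against WT untreated, Reg1 ranged from −0.40 (without WT DSS 1) to 0.71.

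Whether replicate numbers pair the samples could not be settled. Deviations from the group mean of same-numbered untreated libraries correlated at 0.08, −0.01 and −0.19, and those of untreated with DSS libraries at −0.29 to 0.01. Those of DSS libraries correlated at 0.21 for both numbers, which is 1 value, because the deviations in a group of 2 libraries mirror each other. With the replicate block, 4, 0, 4, 2 and 0 members passed in the 5 comparisons, as without it, and no member's call changed.

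Depth limits Reg1, Reg3a and the relatives, at 0 to 24 expected counts per library. With 2 DSS libraries per genotype and sex tied to treatment, the DSS comparisons have the least support.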
